A study of Mus musculus with 28 samples.

Results

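The genes of the protamines and transition proteins were followed through 4 stages of male germ cell development by the acetylation of lysine 27 of histone H3 (H3K27ac), a mark of active promoters and enhancers. Protamines are the small arginine-rich proteins that package the DNA of the sperm head, and transition proteins occupy the chromatin of elongating spermatids after most histones have left and before protamines are laid down. Both kinds of gene are transcribed in round spermatids and their mRNAs are stored and translated later; the cyclic AMP response element modulator Crem, which binds the palindrome TGACGTCA and related sites, is a known activator of several of them. The 7 genes described are Prm1 and Prm2 (the protamines), Prm3 (a neighbour that encodes a small acidic protein), Tnp1 and Tnp2 (the transition proteins), and Hils1 and H1fnt (spermatid linker histones; H1fnt is H1f7 in RefSeq). They were chosen by name, and all called peaks listed under one of them or lying within 1 kb of its listed start were taken, which gave 53 of 471458 H3K27ac peaks.

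The 12 H3K27ac libraries fell into 6 groups of 2 replicates from C57BL/6 mice, made by ChIPmentation, in which a transposase adds the sequencing adapters to the immunoprecipitated chromatin. Thy1+ spermatogonia (undifferentiated) and c-Kit+ spermatogonia (differentiating) came from testes at postnatal day 7, each from wild type (WT) and from Scml2-KO (KO) mice, which lack the germline Polycomb-related gene Scml2. Pachytene spermatocytes (PS) and round spermatids (RS) came from adults and were KO in the H3K27ac libraries used here, so every adult value below is a value of KO cells and stage cannot be told apart from age. A further 16 input libraries, in 8 groups of 2, covered both genotypes at all 4 stages. The labels describe isolation by sedimentation or magnetic sorting without saying which cells took which route, and do not say whether replicates came from separate animals, so the spread between replicates may be technical.

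The libraries differed in the number of called peaks, with 17877 to 36362 in spermatogonia, 64056 to 69042 in PS, 63322 to 73316 in RS and 359 to 1192 in the inputs. Read depth is unknown. The deposited background height, which enters the fold enrichment of every summit, was 1.62 and 1.56 in replicate 1 of PS and RS and 0.876 and 0.849 in replicate 2, and it lay between 0.564 and 1.11 in spermatogonia. Of 8 spermatid marker genes, 8 and 7 had a promoter peak in the PS libraries, 8 in each RS library and at most 1 in any spermatogonial library. Of 5 Sertoli cell marker genes, 5 had one in each PS library and 2 to 3 in the RS libraries. Of 8 spermatogonial markers, 0 to 6 were called in the spermatogonial libraries (0 in Thy1+ KO replicate 2) and 3 to 7 in the adult ones, so this mark at these genes did not set spermatogonia apart. Of 7 spermatocyte markers with a listed start, 7 were called in each PS and each RS library. In bulk fractions like these, fewer cells of a type and less signal per cell cannot be told apart.

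Prm1, Prm2, Prm3 and Tnp2 lie in a row on chromosome 16 of mm10, all on the minus strand, and their starts are 8168 bp apart from Prm1 to Tnp2. Prm1 spans chr16:10796332-10796823, Prm2 spans chr16:10791377-10792105, Prm3 spans chr16:10790508-10790914 and Tnp2 spans chr16:10787935-10788655. The starts of Prm2 and Prm3 are 1191 bp apart, so that their 1 kb windows overlap and can share summits. The other 3 genes are single loci: Tnp1 at chr1:73015075-73015899 (minus strand), Hils1 at chr11:94967661-94968456 (plus strand) and H1fnt at chr15:98255982-98257307 (minus strand).

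The 150 bases before the start of Prm1, Prm2, Prm3 and Tnp1 are shown because they hold matches to the motifs searched, which the same stretch of the other 3 genes does not. They are RefSeq sequences of GRCm38.p6 (the assembly of mm10), read 5′ to 3′ on the minus strand, at chr16:10796824-10796973, chr16:10792106-10792255, chr16:10790915-10791064 and chr1:73015900-73016049. Capitals mark the matches.
Prm1: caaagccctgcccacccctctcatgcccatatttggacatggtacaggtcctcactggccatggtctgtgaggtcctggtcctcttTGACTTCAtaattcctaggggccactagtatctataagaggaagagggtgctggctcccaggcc
Prm2: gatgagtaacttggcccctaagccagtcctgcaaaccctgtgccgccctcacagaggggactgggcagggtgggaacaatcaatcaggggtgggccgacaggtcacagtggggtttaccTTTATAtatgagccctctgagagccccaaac
Prm3: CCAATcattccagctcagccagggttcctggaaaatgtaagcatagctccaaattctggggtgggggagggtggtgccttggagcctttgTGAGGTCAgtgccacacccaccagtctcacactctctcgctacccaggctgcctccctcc
Tnp1: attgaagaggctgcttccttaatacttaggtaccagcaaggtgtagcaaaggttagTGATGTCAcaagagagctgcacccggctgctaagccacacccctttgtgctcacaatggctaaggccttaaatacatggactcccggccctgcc
Counted from −1 for the base before the start, Prm1 holds TGACTTCA from −64 to −57, Prm3 holds TGAGGTCA from −60 to −53 and Tnp1 holds TGATGTCA from −94 to −87, each 1 letter from TGACGTCA. Prm2 holds TATAAA on the opposite strand, printed as TTTATA, from −31 to −26, and Prm3 holds CCAAT from −150 to −146.

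Motifs were searched on both strands of the RefSeq promoters of all 7 genes, from 250 bases before to 50 after the start, beside 32851 RefSeq promoters of the same length. TGACGTCA itself was in 0 of the 7 and in 1.79% of all promoters. Its shorter part TGACG, which lies inside TGACGTCA, was in 1 of 7 (H1fnt) and in 20.8% of all. TATAAA was in 1 of 7 (Prm2) against 13.6%, and CCAAT in 2 of 7 (Prm3 and Hils1) against 37.4%. Allowing 1 mismatch to TGACGTCA, a search added after the sequences had been read, gave 4 of 7 (Prm1, Prm3, Tnp1 and Hils1) against 12.5%. In the 150 bases before the start alone, the last 3 shares of all promoters were 7.57%, 24.5% and 8.15%, with 1, 1 and 3 of the 7 genes. These matches describe letters in a window and were not compared with any binding data.

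No member had a peak in any spermatogonial library, of either genotype, and every member had a promoter peak in every adult library. A promoter value is the fold enrichment of the highest summit within 1 kb of the start. Over members and libraries there were 28 of 28 promoter calls in PS and RS, 0 of 56 in Thy1+ and c-Kit+ spermatogonia and 0 of 112 in the inputs. The same pattern, a call in all 4 adult libraries and in none of the 8 spermatogonial libraries, was found for 1031 of 17925 genes with a listed start (5.75%), while 66.7% of genes were called in all 4 adult libraries and 70.6% in at least 1 spermatogonial library. The 28 adult values ran from 5.86 to 35.6. All were above the lowest value called anywhere in the spermatogonial libraries, which was 3.31 to 3.84 depending on the library, and 27 of the 28 still were when lowered by the median difference between adult and spermatogonial libraries given below, the exception being Prm1 in PS replicate 2 at 3.61. A weaker signal in spermatogonia was not detectable in these tables.

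In a limma fit of the 4 KO groups, the adult minus spermatogonial change of the members was between 0.92 log2 units (Prm1) and 1.84 (Hils1), relative to the median gene of each library. The members entered this fit through the adult groups alone and their spermatogonial values were set to each library's lowest called fold enrichment, so these changes are descriptions that depend on the floor and the scale. With stricter peaks, where that lowest value is higher, they were −0.06 (Prm1) to 0.75 (Hils1) and none passed (limma, adjusted p 0.0785 to 0.938), and without centring, which removed a shift of 0.70 log2 units between adult and spermatogonial libraries, they were 1.62 to 2.54. In the same fit 38.4% of 13833 genes passed an adjusted p of 0.05, 14.5% higher and 23.9% lower in adult cells. Genotype could be compared in spermatogonia alone, where 0 of 11056 genes passed (limma with Benjamini-Hochberg adjustment; 490 had an unadjusted p under 0.05), and no member was among the genes tested because none was called.

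**Figure D1:**
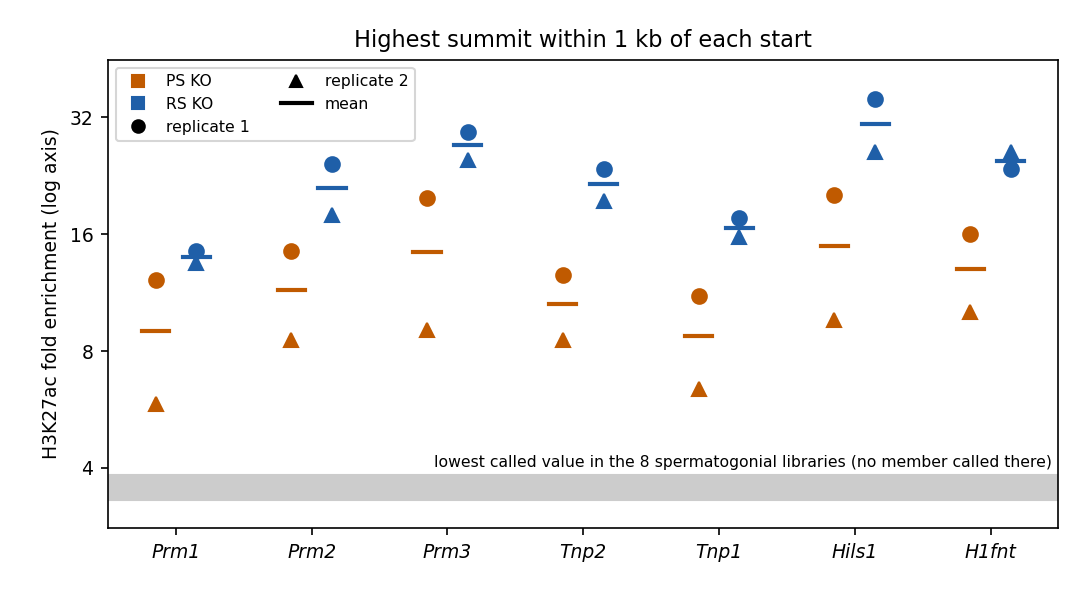
Fold enrichment of the highest H3K27ac summit within 1 kb of the start of each gene (log axis) in the PS KO and RS KO libraries, with replicates as points and means as lines; the grey band is the range of the lowest called values in the 8 spermatogonial libraries. Both RS points lie above both PS points for all 7 genes, and PS replicate 2 is the lowest point of each.

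From spermatocytes to spermatids, promoter H3K27ac rose at 6 of the 7 genes, beside 9.07% of all genes tested. The 2 protamine genes come first. At Prm1, PS replicates 1 and 2 had fold enrichments of 12.2 and 5.86 and RS replicates 1 and 2 had 14.5 and 13.5, means of 9.03 ± 4.48 and 14 ± 0.671 (SD, n = 2). Prm1 was the weakest of the 7 genes in both RS libraries and in PS replicate 2, and PS replicate 1 was close below the RS values. Its change of 1.09 log2 units (SE 0.32) did not pass (limma, adjusted p = 0.067); it passed over genes called in every library (0.0449), with 1 lowest value common to all libraries (0.0469) and with stricter peaks (0.00988). At Prm2, fold enrichment was 14.5 and 8.53 in PS and 24.3 and 17.9 in RS, means of 11.5 ± 4.21 and 21.1 ± 4.53 (SD, n = 2). The groups did not overlap, and Prm2 rose by 1.26 log2 units (SE 0.26; limma, adjusted p = 0.0184). In PS replicate 1 and both RS libraries the Prm2 value came from a summit nearer the Prm3 start. In PS replicate 2 it came from a summit before the Prm2 start, so the change compares different sites.

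Prm3, between Prm2 and Tnp2, carried the highest summits of the 4 clustered genes in all 4 adult libraries. Its fold enrichment was 19.8 and 9.06 in PS and 29.3 and 24.9 in RS, means of 14.4 ± 7.61 and 27.1 ± 3.15 (SD, n = 2). Both RS values were above both PS values, and the change was 1.37 log2 units (SE 0.33; limma, adjusted p = 0.034). The Prm3 summit was also the most fixed in place: it lay 384, 364, 371 and 364 bp after the start in PS replicates 1 and 2 and RS replicates 1 and 2, near the end of this gene of 407 bp. In contrast the Prm2 summit lay 811, 788 and 676 bp after its start in 3 libraries and 334 bp before it in PS replicate 2. The Prm1 summits all lay before the start, by 609 and 88 bp in PS and by 364 and 476 bp in RS.

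Of the transition protein genes, Tnp2 had the higher fold enrichment in each adult library, and their summits lay at unlike distances in replicate 2. Tnp1 had fold enrichments of 11.1 and 6.40 in PS and 17.6 and 15.7 in RS, means of 8.73 ± 3.30 and 16.6 ± 1.35 (SD, n = 2). The groups did not overlap and Tnp1 rose by 1.34 log2 units (SE 0.26; limma, adjusted p = 0.0153). Its summits lay 194, 200, 212 and 311 bp before the start, on the side of the divergent noncoding gene 1700027A15Rik, whose start is 137 bp away and which has the same values. Tnp2 had 12.6 and 8.53 in PS and 23.5 and 19.5 in RS, means of 10.6 ± 2.87 and 21.5 ± 2.82 (SD, n = 2). It also did not overlap between groups, and of the members it had the smallest adjusted p, with a rise of 1.41 log2 units (SE 0.22; limma, adjusted p = 0.0073). Its summits lay 224 and 328 bp before the start in replicate 1 of PS and RS and 922 and 914 bp before it in replicate 2.

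Of the 7 genes, the linker histone gene Hils1 had the highest mean in RS. It reached 20.2 and 9.60 in PS and 35.6 and 26.0 in RS, means of 14.9 ± 7.5 and 30.8 ± 6.81 (SD, n = 2). In RS replicate 1 this put Hils1 at percentile 98.9 of all genes with a promoter peak, and in PS replicate 2 at percentile 24.7. It did not overlap between groups and rose by 1.49 log2 units (SE 0.33; limma, adjusted p = 0.0227). H1fnt had 16 and 10.1 in PS and 23.5 and 26.0 in RS, means of 13.1 ± 4.16 and 24.7 ± 1.77 (SD, n = 2). H1fnt was the member whose second RS replicate was the higher one, and it rose by 1.31 log2 units (SE 0.26; limma, adjusted p = 0.0154). Summits of both genes lay after the start, between 50 and 306 bp at Hils1 and between 192 and 490 bp at H1fnt.

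**Figure D2:**
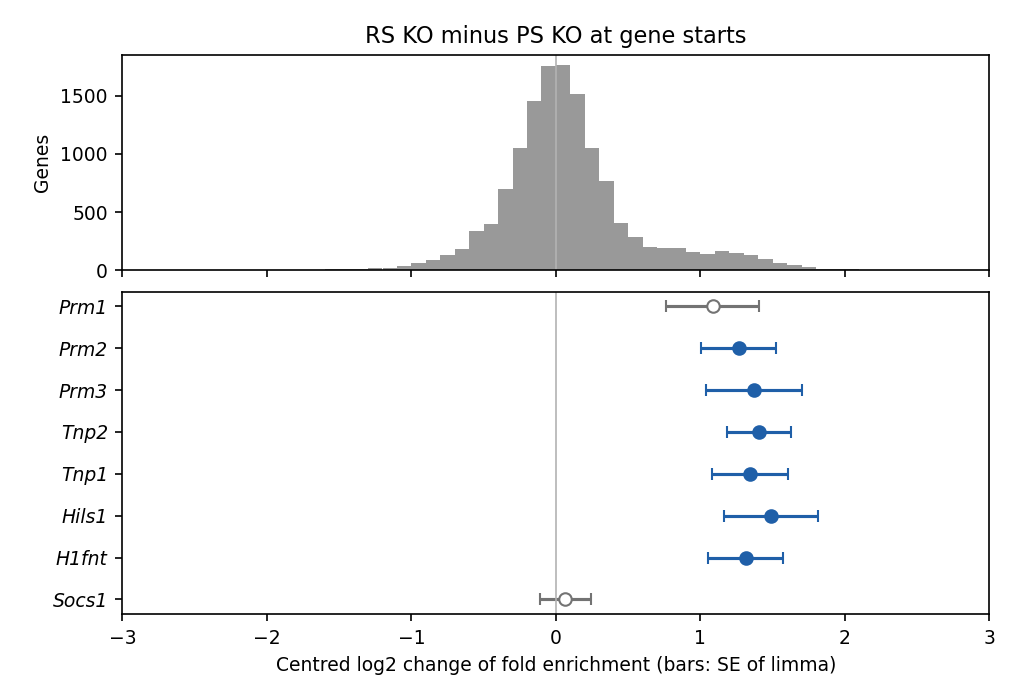
Change of promoter fold enrichment from PS KO to RS KO on the centred log2 scale, as the number of genes per 0.1 unit for all 13603 genes tested (top) and as the change with its limma standard error for the 7 genes and for Socs1, the neighbour of the chromosome 16 cluster (bottom). Filled points passed an adjusted p of 0.05; the 7 genes lie between 1.09 and 1.49, and Socs1 lies at 0.07.

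Among all 13603 genes tested, 11.7% changed between PS and RS, 9.07% higher and 2.67% lower in RS, and the median change was 0.03 log2 units beside 1.34 for the 7 members. In the deposited fold enrichments themselves, before centring, both RS values were above both PS values for 7 of 7 members and for 7.91% of the 11949 genes called in all 4 adult libraries, while both were below for 63.2%. The median shift that centring removed was −0.36 log2 units, and without centring the members' changes were between 0.73 and 1.13. The ratio of the RS mean to the PS mean was between 1.55 (Prm1) and 2.07 (Hils1). Within replicate 1 alone the ratio was 1.19 to 1.87, and within replicate 2 alone it was 2.09 to 2.75.

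PS replicate 2 was low at these genes. The ratio of replicate 2 to replicate 1 in PS had a median of 0.579 over the members (range 0.457 to 0.678) beside 1.05 over all 11949 genes, and 1.88% of genes had a ratio at or below the members' median. In RS the members' median ratio was 0.848 and that of all genes 0.855. The summed fold enrichment of the 8 spermatid markers moved the same way, with 96.9 and 68.2 in PS and 149.0 and 127.7 in RS, and 7 of the 8 were higher in RS. Spermatocyte markers summed to 159.0 and 186.6 in PS and 146.3 and 131.5 in RS, and 0 of 7 changed in the centred fit (median −0.095 log2 units). The sums of all these lists are not centred and take an uncalled gene as 0, while the counts of genes higher or lower are from the centred fit. Centring removed a median shift of −0.36 log2 units from PS to RS, so the sums alone do not give a change. Sertoli cell markers summed to 40.8 and 47.5 in PS and 11 and 13.5 in RS, with 4 of 5 lower in RS. Leydig cell markers summed to 22.1 and 25.1 in PS and 4.30 and 5.41 in RS, with 2 of the 3 tested lower. Of the peritubular and blood cell markers 1 was tested, the leukocyte gene Ptprc, which entered through RS alone with a change of 1.71 log2 units; that list summed to 0 and 4.80 in PS and 9.00 and 7.03 in RS. The part of the fractions' cell makeup in the members' change was not tested.

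Leaving out 1 library made a fit of 1 against 2 libraries, in which the lone library was assumed to vary like the other group. Without PS replicate 2, the 6 members that passed did so with changes of 0.76 to 1.08 log2 units, and Prm1 had 0.52 (limma, adjusted p = 0.199). Without PS replicate 1, RS replicate 1 or RS replicate 2, no gene of all those tested passed, so these fits say nothing of the members' calls; the members' changes were 1.64 to 2.05, 1.17 to 1.52 and 1.00 to 1.58. With summits taken within 250 bp of the start, 0 of 7 passed: Hils1 turned to −0.28 (limma, adjusted p = 0.924) and Prm1 had 0.34, while the other 5 had changes of 1.06 (Tnp1) to 2.85 (H1fnt), with adjusted p-values from 0.0968 to 0.427. In that window Prm2, Tnp2 and H1fnt were each called in only 1 PS library, and Hils1 in only 1 RS library. The uncalled library was set to its lowest value, so the changes of these genes depend on that value. With quantile normalization 4 of 7 passed, and with the highest summit of any overlapping peak 3 of 7, at changes of 0.97 to 1.38 and 1.00 to 1.47 over the 7. In the latter setting a gene can take the summit of a neighbour. Prm2, Prm3 and Tnp2 then shared an RS mean of 27.1 ± 3.15 (SD, n = 2). Tnp2 took the Socs1 summit in PS replicate 1, which made its PS mean 20.9 ± 16.8 (SD, n = 2).

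**Figure D3:**
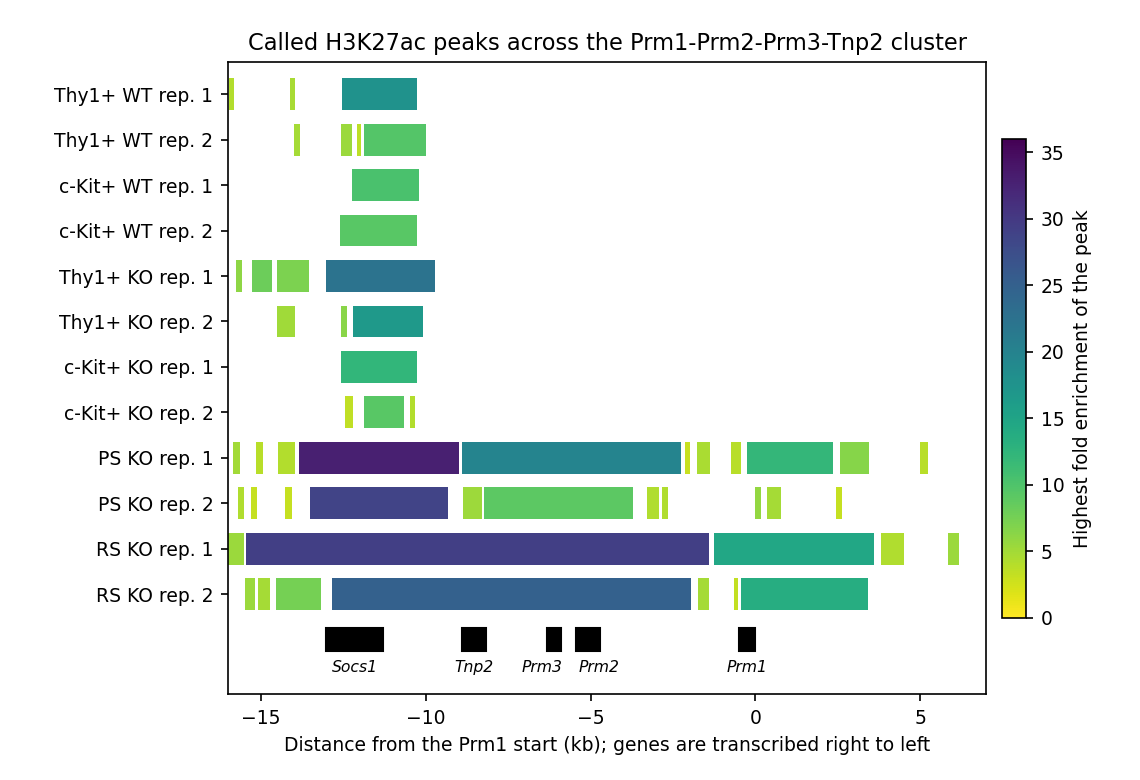
Called H3K27ac peaks in the 12 libraries across the chromosome 16 cluster, drawn as blocks by distance from the Prm1 start in kb and coloured by the highest fold enrichment in the peak; black boxes are genes. Spermatogonial peaks lie at Socs1 or beyond it, while in the PS and RS libraries blocks, some with gaps between them, extend from Socs1 to the far side of Prm1, unbroken over Tnp2, Prm3 and Prm2 in RS.

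Across the chromosome 16 cluster the mark formed broad blocks over Tnp2, Prm3 and Prm2, beside separate peaks at the Prm1 promoter. In a window of 18169 bp that reaches 5 kb beyond the outer starts (chr16:10783655-10801823), called peaks covered 15167 and 10270 bp (83.5% and 56.5%) in PS and 17329 and 15228 bp (95.4% and 83.8%) in RS. The means were 12718.5 ± 3462.7 bp in PS and 16278.5 ± 1485.6 bp in RS (SD, n = 2), and PS replicate 2 had the least cover. The RS values were both above the PS values, but RS replicate 2 exceeded PS replicate 1 by less than the spread between replicates of either group. The window held 43 and 26 summits in PS and 50 and 46 in RS.

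Single peaks joined several of these genes. In RS replicate 1, a peak of 14047 bp (chr16:10781374-10795420) ran over the start of Socs1, the neighbour of the cluster, and over Tnp2, Prm3 and Prm2, and 3 peaks of that library, itself included, were at least as wide. In RS replicate 2 the peak over the same 4 starts was 10887 bp wide (chr16:10783991-10794877), a width that 5 peaks of that library reached. In PS the widest peak in the window was 6634 bp in replicate 1 (chr16:10787931-10794564), a width reached by 97 peaks (0.14%), and 4528 bp in replicate 2 (chr16:10788595-10793122), a width reached by 271 (0.423%). Both PS peaks lacked Socs1, which had a peak of its own there, 101 bp away in replicate 1, so the greater width in RS includes the joining of the Socs1 peak. The Prm1 promoter had a peak of its own in all 4 adult libraries, of 2603 and 189 bp in PS and 4857 and 3844 bp in RS. Between Prm2 and Prm1, called peaks covered 3272 and 1568 bp of the 4226 bp interval in PS and 4067 and 3269 bp in RS.

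The edge of the cluster next to Tnp2 differed from the rest. Socs1, which encodes a suppressor of cytokine signalling, starts 3119 bp from Tnp2 and was called in all 12 H3K27ac libraries. Its fold enrichment was 9.30 to 22.3 in the 8 spermatogonial libraries (median 11.3), 32.8 and 28.8 in PS and 25.8 and 24.3 in RS. The spermatogonial cover in the window was 1606 to 3312 bp and lay around Socs1, and from 1 kb beyond the Tnp2 start onwards it was 0 of 14169 bp in each spermatogonial library. Over the same 14169 bp peaks covered 11167 and 6439 bp in PS and 13329 and 11564 bp in RS. Socs1 did not pass between PS and RS, with a change of 0.07 log2 units (SE 0.17; limma, adjusted p = 0.868). The highest summit of the whole window was at Socs1 in both PS libraries (32.8 and 28.8) and at Prm3 in both RS libraries (29.3 and 24.9).

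**Figure D4:**
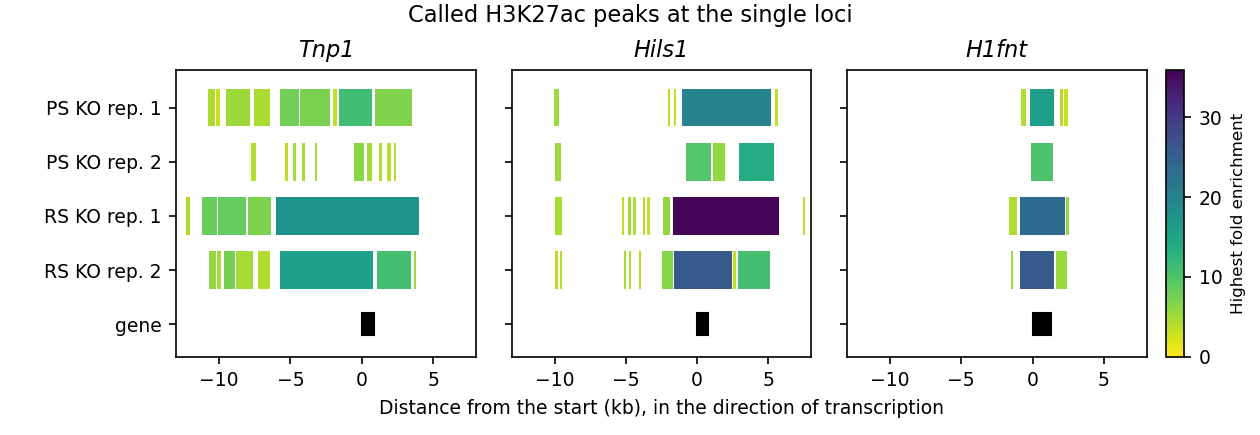
Called H3K27ac peaks in the 4 adult libraries around Tnp1, Hils1 and H1fnt, by distance from the start in kb in the direction of transcription and coloured by the highest fold enrichment in the peak; black boxes are the genes. Peaks at Tnp1 reach several kb before the start, those at Hils1 run past the gene's end, and those over the H1fnt start are the narrowest of the 3 in RS.

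The single loci differed in shape. At Tnp1 the peak over the start was 2248 and 733 bp wide in PS and 9992 and 6520 bp in RS, and in RS it reached 6005 and 5702 bp before the start. The RS replicate 1 peak (chr1:73011913-73021904) was among the 17 widest of that library. At Hils1 the peak over the start was 6310 and 1772 bp wide in PS and 7476 and 4056 bp in RS, and in all 4 libraries it ran past the end of the gene, by 4418, 200, 4967 and 1654 bp. In replicate 2 a separate peak lay 2.951 to 5.402 kb after the start in PS (fold enrichment 13.9). The one in RS replicate 2 lay 2.893 to 5.078 kb after it (10.8). The longer replicate 1 peaks ran into this stretch, so their reach may include that second site. At H1fnt the peak was the narrowest of the 3 in RS and in PS replicate 1, at 1710 and 1516 bp in PS and 3157 and 2419 bp in RS. At Tnp1 and H1fnt both RS widths were above both PS widths, while at Hils1 PS replicate 1 was wider than RS replicate 2. How often peaks over the starts of all genes show this order of widths was not computed.

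Members' peaks over 1 kb from a start merged into 13 regions, none of which had a peak in a spermatogonial library or an input. Both of those kinds of library had fewer called peaks than the adult ones. The share of all adult regions over 1 kb from a start that lack such a peak was not computed. A region 9.8 kb before Hils1 (chr11:94957636-94958175) was called in all 4 adult libraries, at fold enrichments of 5.34 and 5.33 in PS and 4.69 and 4.33 in RS. A region 10.5 kb before Tnp1 (chr1:73025757-73027109) was called in 3, at 4.58 in PS replicate 1 and 8.21 and 5.95 in RS. These fold enrichments are not centred, on a scale where RS lay 0.36 log2 units below PS at the median gene, and no region was tested alone. The other 11 regions came from separate peaks of 1 or 2 libraries each. This count leaves out wider peaks that reach within 1 kb of a start, so it is not the number of libraries with signal there. The region chr16:10793543-10793910, counted in PS replicate 2 alone, lay inside the broad cluster peaks of PS replicate 1 and both RS libraries.

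Among 14 regulators of these genes, 13 entered the fit between PS and RS, and 2 rose and 0 fell, beside 9.07% and 2.67% of all genes, with a median change of 0.26 log2 units beside 0.03 over all genes. Fhl5, the Crem coactivator also called ACT, rose by 1.64 log2 units (SE 0.26; limma, adjusted p = 0.00751), from 6.10 and 3.73 in PS to 11.3 and 11.9 in RS. Papolb, the testis poly(A) polymerase, rose by 0.68 log2 units (SE 0.17; limma, adjusted p = 0.0376), from 11.4 and 10.7 to 14.1 and 13.5. Against KO spermatogonia, 6 of the 13 were higher in adult cells and 0 lower, beside 14.5% and 23.9% of all genes, with a median of 0.56 beside −0.11 over all genes. Each of the 6 was called in at least 1 spermatogonial library, but libraries without a call were again set to their lowest value. Sox30, a transcription factor of spermiogenesis, was called in all 12 libraries and had values of 5.25 to 10.6 in KO spermatogonia and 32.5 to 36.2 in adult cells. Ybx2, the RNA-binding protein that stores protamine mRNA, had 3.78 to 5.57 in the 3 KO spermatogonial libraries that called it and 15.7 to 27.7 in adult cells. The third of the largest was Taf7l, a testis TFIID subunit, whose change was 1.17 log2 units (SE 0.18; limma, adjusted p = 0.000966).

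Of 14 genes of the exchange of histones for protamines, 11 entered the PS to RS fit; 1 rose and 0 fell, a share near the 9.07% and 2.67% of all genes, and the median was −0.05 beside 0.03 over all genes. Hmgb4, a testis high mobility group protein, rose by 1.24 log2 units (SE 0.24; limma, adjusted p = 0.0146), from 9.15 and 5.86 in PS to 16 and 11.4 in RS. Against spermatogonia, 3 of the 11 were higher and 2 lower, beside 14.5% and 23.9% of all genes. The 3 were Hmgb4, Chd5, a chromatin remodeller of spermatids, and Brdt, the bromodomain reader that binds acetylated histone tails in the testis. All 3 were called in every adult and no spermatogonial library, so they entered through the adult groups alone and their direction was fixed by that. Brdt did not share the members' order of values, with 17.5 and 25.1 in PS and 14.9 and 11.9 in RS.

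Of 11 histone genes with a role in the testis or of the linker and H3.3 families, 6 entered the PS to RS fit. Of these 1 rose and 1 fell, beside 9.07% and 2.67% of all genes, with a median of 0.33 beside 0.03 over all genes. The gene counted as risen was H2afb1, an H2A variant of spermatids, called at 4.58 in PS replicate 1, not at all in PS replicate 2, and at 7.82 and 7.57 in RS. It entered the fit through RS alone, with PS replicate 2 set to that library's lowest value, so its change of 1.37 log2 units is a description. Hist1h1t, the testis linker histone H1t made in spermatocytes, fell by 0.66 log2 units (SE 0.17; limma, adjusted p = 0.0416), from 11.4 and 13.3 to 6.26 and 5.95. Among the linker histone genes, Hils1 and H1fnt were thus higher and Hist1h1t lower in RS, while H1f0 and H1fx did not pass, with 0.11 (SE 0.18) and 0.46 (SE 0.18) log2 units (limma, adjusted p = 0.784 and 0.145). Against KO spermatogonia, 2 of the 6 (H1fx and Hist1h1t) were higher in adult cells and 0 lower, beside 14.5% and 23.9% of all genes. Hist1h1t was called in 1 spermatogonial library alone, and the others were set to their lowest value. In the genotype comparison 0 genes of any of the 3 lists passed, of 8, 8 and 4 tested.

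The genes whose values over the 12 libraries were most like those of Prm1, by the root mean square difference of log2 fold enrichment over 14979 genes, were 1700011A15Rik (0.048), Capza3 and Plcz1 (0.049 each, with shared values), 4930578I06Rik (0.058) and 4921530D09Rik (0.072). Capza3 encodes an actin-capping subunit of spermatids and Plcz1 the sperm phospholipase of egg activation. Those most like Tnp1, beside its divergent neighbour, were Iqcf3 (0.041), 4930455C13Rik (0.049), Ubl4b (0.054) and 1700018C11Rik (0.056). All of these were called in the 4 adult libraries and in no spermatogonial library. Since 8 of the 12 libraries gave no call, this likeness rests on 4 values per gene.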

How the data were processed

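Peaks of each library were called separately. Reads were aligned with Bowtie and peaks called with MACS2 on mm10, per the submitters' processing notes, with roles and versions not given in the sources used here. Per the file headers, each summit had a deposited signal height (pileup), a fold enrichment (a ratio), and −log10 p and −log10 q values, none of which is a count. In all 28 libraries the deposited fold enrichment was (height + 1) divided by 1 background value plus 1, constant within 0.1%, so it held no local control. Mitochondrial rows were left out.

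A gene's value was the highest fold enrichment of a summit within 1 kb of a start listed under that gene alone. Prm2 and Prm3 had no such start and took theirs from RefSeq GRCm38.p6, the assembly of mm10. The Hils1 start in the files is 68 bp from that of RefSeq. Genes called in both libraries of at least 1 group compared were tested with limma 3.58.1 (R 4.3.3) on log2 values. An uncalled library was set to its own lowest fold enrichment, and the median over genes called in every library compared was subtracted from each library. P-values were adjusted over all genes tested (Benjamini-Hochberg, threshold 0.05). Stage was compared between PS and RS (2 against 2 libraries) and between adult and spermatogonial KO groups, and genotype in spermatogonia with stage as a covariate. The fits were tested on simulated data. Tables were handled with Python 3.11.15 and pandas 2.3.3.

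The members and lists were chosen with earlier results of these data known, so a pattern they share is not independent evidence. Named genes are all members, their neighbours (within 25 kb of the cluster and 10 kb of a single locus; Sgca, near Hils1, was called in no library), the 5 genes most like Prm1 and Tnp1, and up to 3 genes per list with the largest change past the threshold. Alternatives covered the replicate block, uncalled values, centring, peak sets, windows and left-out libraries; RefSeq starts were added after seeing the data. WT adult H3K27ac libraries were not analysed here.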

Additional observations from a re-analysis of the deposited data

How the results depend on the processing

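Between PS and RS, 1597 genes passed with the chosen settings. The count was 1029 over genes called in every library, 938 with stricter peaks, 109 with a 250 bp window, 2544 without centring and 13206 of 49727 merged regions, and leaving out 1 library gave 0 to 1253. Without centring 28.1% of the calls were higher in RS, and with quantile normalization 59.1%, beside 77.3% with centring. Between adult cells and spermatogonia, 5310 passed, 2238 with stricter peaks and 831 with a 250 bp window, and leaving out 1 library gave 3668 to 5865; the share of calls higher in adult cells was 37.8%, and 96.0% without centring, 48.1% with quantile normalization and 56.8% with the same number of summits per library. Genotype gave 0 calls under every alternative run. Hils1 turned to −0.279 between PS and RS in a 250 bp window, and Prm1 to −0.06 between adult cells and spermatogonia with stricter peaks; the cause was not tested.

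With the replicate block, 2224 genes passed between PS and RS (1613 higher, 11.9% of those tested), 5735 between adult cells and spermatogonia and 0 between genotypes (620 with an unadjusted p under 0.05). All 7 members passed between PS and RS with it, Prm1 with an adjusted p of 0.00531. Same-numbered libraries deviated together with a correlation of 0.0331 in that comparison, so the numbers were not taken to pair the samples. Prm1 also passed with genes called in every library, with 1 common lowest value and with stricter peaks, with adjusted p-values between 0.00988 and 0.0469, and did not in the other settings run, where they ranged to 0.669.

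The members' adult calls were 28 of 28, 26 with stricter peaks, 24 in a 250 bp window and 20 with the same number of strongest summits in every library, and 0 in spermatogonia in each case. Cluster cover was 10885.5 ± 3573.0 bp in PS and 15677 ± 1337.8 bp in RS (SD, n = 2) with stricter peaks. Without read depths, counting error could not be given.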
